A study of Mus musculus with 12 samples.

Results

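Omp and S100a5 encode proteins of mature olfactory sensory neurons, and their transcripts were followed here in the brain and liver of Mettl5 knockout and control mice. They are 2 of the 55487 genes counted in this experiment and were found by matching gene identifiers to these symbols. They were chosen by their brain counts, which differed widely between KO and WT, so the genotype values in brain are given as a description without a test. Total RNA was sequenced from 6 mice, with 1 brain and 1 liver library from each, which gave 4 groups of 3 libraries. KO mice (A, C and F) lack METTL5, an m6A methyltransferase that modifies 18S rRNA, and WT mice (B, D and E) carry the label WT. The knockout was whole-body: a floxed exon 2 of Mettl5, made in C57bl/6 x 129S6 hybrid ES cells and backcrossed to B6, was deleted with a CMV-cre line. According to a figure legend and the supplementary text of the study the sequenced controls were heterozygous, and WT is used here only as the labels use it. The study used both sexes at 4 weeks to 6 months of age, and the labels give neither sex nor age for these mice.

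Olfactory sensory neurons sit in the lining of the nose. Each sends an axon through the skull into the glomeruli of the olfactory bulb, at the front of the brain, where it contacts mitral, tufted and periglomerular cells. Odorant receptors in the cilia act through a G protein, adenylyl cyclase and a cyclic nucleotide-gated channel. OMP is a small cytoplasmic protein that marks mature sensory neurons and takes part in odorant signalling. S100A5 is a calcium-binding protein of the S100 family whose expression in these neurons depends on activity. A whole-brain library can hold their transcripts from the axons, from tissue that stays attached to the bulb, or from other brain cells, and the counts do not show which of these a read came from.

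Library totals ran from 14403309 to 18365114 counts in brain and from 16145754 to 21623180 in liver, and Pearson correlations of log2 normalised counts within groups were at least 0.97. The tissue labels held: the neuronal gene Snap25 had at least 14504 counts in each brain library and at most 21 in liver, and the hepatocyte gene Alb had at least 842812 counts in each liver library and at most 485 in brain. Mettl5 had 141, 117 and 100 counts in the WT brain libraries and 41, 55 and 58 in the KO brain libraries, so every KO library lay below every WT library while some counts remained. Mitochondrial rRNA took 21.4% to 31.6% of counts in KO brain and 7.63% to 17.7% in WT brain. Scaling by library totals without mitochondrial rRNA left the brain log2 fold change of Omp at 3.70 and the S100a5 ratio given below at 36.3.

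The coding sequences are shown because both genes are counted from few reads, so what a read can be assigned to matters. S100a5 (ENSMUSG00000001023.10) lies on the plus strand of mm10 at chr3:90608523-90611780, between S100a4 and S100a6, and its 432 exon bases hold 282 coding bases in 2 coding exons. Omp (ENSMUSG00000074006.3) lies on the minus strand at chr7:98143359-98145502 and is a single exon of 2144 bases with 492 coding bases. The sequences are read from the GENCODE vM21 reference 5′ to 3′. Capitals mark the last coding exon of S100a5 and the start codon of Omp, of which the first 300 coding bases are given.
S100a5: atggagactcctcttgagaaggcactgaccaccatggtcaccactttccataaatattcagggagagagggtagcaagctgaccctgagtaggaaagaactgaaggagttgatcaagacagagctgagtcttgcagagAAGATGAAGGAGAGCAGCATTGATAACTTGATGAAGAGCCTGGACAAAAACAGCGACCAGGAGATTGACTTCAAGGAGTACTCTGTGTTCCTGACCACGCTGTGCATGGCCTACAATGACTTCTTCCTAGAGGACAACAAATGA
Omp: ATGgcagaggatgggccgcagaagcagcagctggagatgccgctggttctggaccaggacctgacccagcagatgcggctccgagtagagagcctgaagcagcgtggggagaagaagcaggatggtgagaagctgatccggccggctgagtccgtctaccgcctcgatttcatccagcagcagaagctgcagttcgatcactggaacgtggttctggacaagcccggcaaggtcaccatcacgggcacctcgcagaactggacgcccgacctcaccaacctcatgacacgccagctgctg
None of the 332 stretches of 100 bases in S100a5 transcripts, and none of the 2045 in Omp, occurred in transcripts of other genes, and the same held for stretches of 36 bases. The S100 coding sequence closest to S100a5 was its neighbour S100a4, at 63.8% identity, followed by S100a6 at 61.3% and S100b at 61.1%, and the most distant was S100a13 at 40.8%.

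The surroundings of the genes differ. The nearest genes to S100a5 share no exon base with it. Omp lies whole within an intron of Capn5, a calpain protease gene, at chr7:98135969-98145515, and both genes are on the minus strand. Exons of the genes do not overlap, but a read from unspliced Capn5 RNA over Omp would carry the same strand and be counted as Omp.

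In brain, Omp was about an order of magnitude higher in KO than in WT. The WT libraries held 13, 13 and 22 Omp counts in mice B, D and E, and the KO libraries held 95, 170 and 213 in mice A, C and F. Normalised for library size and composition, these were 0.838, 0.652 and 1.11 CPM (normalised read counts scaled to a common library size) in WT and 7.72, 12.2 and 14.04 CPM in KO. Every KO library lay above every WT library, as was so for 8.41% of the 17188 genes tested in brain. The log2 fold change was 3.70 (SE 0.32), and the ratio of summed counts, scaled to library size, was 13.3 (95% interval 9.89 to 18.3, counting error only).

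S100a5 was close to absent from WT brain and present in KO brain. The WT libraries held 3, 1 and 0 counts in mice B, D and E, and the KO libraries held 74, 73 and 102 in mice A, C and F. The KO values were 6.02, 5.25 and 6.72 CPM, a mean of 5.996 ± 0.737 (SD, n = 3), against 0.193, 0.0502 and 0 CPM in WT. The groups did not overlap, and the KO libraries were closer to one another than for Omp, whose KO mean was 11.3 ± 3.25 CPM (SD, n = 3). Over the groups, 249 counts stood against 4, a scaled ratio of 83.3 with an interval of 32.1 to 308 for counting error alone. The KO mean was 36.4 times the level that 3 counts per WT library would give. S100a5 passed the filter on low counts through its KO libraries.

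**Figure D1:**
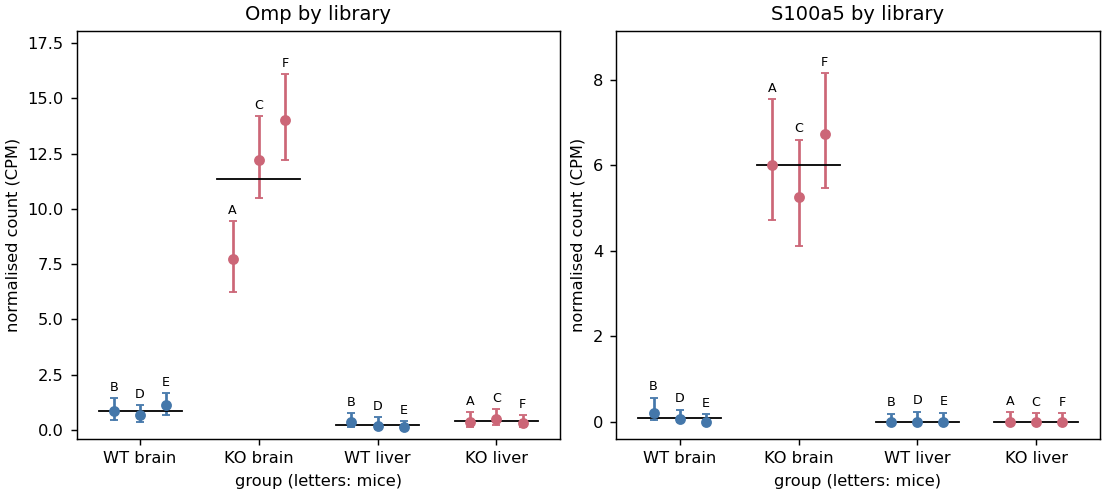
Normalised counts (CPM) of Omp and S100a5 in each library, with the mouse letter beside each point. Vertical bars are 95% Poisson intervals, which cover counting error only, and horizontal lines are group means. CPM are scaled within brain and within liver. For both genes the 3 KO brain libraries lie above the other 9 libraries, and S100a5 is at 0 in all 6 liver libraries.

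The proportions of the pair varied between mice. Among the KO brains Omp was highest in mouse F, then C, then A, whereas S100a5 was highest in F, then A, then C. S100a5 made up 43.8% of the pair's counts in mouse A (exact Clopper-Pearson 95% interval 36.2 to 51.6), 30% in mouse C (24.3 to 36.2) and 32.4% in mouse F (27.2 to 37.9). In WT its share was 3 of 16 counts, 1 of 14 and 0 of 22, or 7.69% of the summed counts (2.14 to 18.5) against 34.3% in KO (30.8 to 37.8). Per kilobase of exon, the KO mean level was 13.9 CPM for S100a5 and 5.29 CPM for Omp, while in WT it was 0.188 CPM for S100a5 and 0.404 CPM for Omp. The order of the genes per length was thus opposite in the groups, although the WT value of S100a5 rests on 4 counts.

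Both genes in liver were near the limit of detection. S100a5 had 0 counts in each of the 6 liver libraries. The 95% interval of such a count reaches 3.69 counts, or 0.19 to 0.236 CPM. Omp had 7, 3 and 2 counts in the WT livers of mice B, D and E and 6, 9 and 6 in the KO livers of mice A, C and F. The means were 0.222 ± 0.126 CPM in WT and 0.393 ± 0.0992 CPM in KO (SD, n = 3 each), and the ranges overlapped. A two-sided exact permutation test gave p = 0.2 for the difference of 0.171 CPM, where the smallest p with 3 against 3 libraries is 0.1. Omp did not pass the filter on low counts in liver, so the fit across genes gives no value for it there. Of the 14075 genes tested in liver, edgeR called 0 between genotypes and 1032 had an unadjusted p under 0.05. DESeq2 called 171 of the 15516 genes to which it gave an adjusted p.

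The CPM above are scaled within a tissue. On a scale common to all 12 libraries, Omp was highest in KO brain (8.91 ± 2.57 CPM), followed by WT brain (0.682 ± 0.178 CPM), KO liver (0.503 ± 0.125 CPM) and WT liver (0.280 ± 0.162 CPM; SD, n = 3 each). KO brain stood clear of the other groups. WT brain and KO liver overlapped, with 0.517 CPM in the WT brain of mouse D and 0.643 CPM in the KO liver of mouse C, and so did the liver groups. Fitted in the WT mice alone, Omp was higher in brain than in liver by 1.24 on the log2 scale (SE 0.55), where the median of all genes was 0.16 and edgeR called 42.9% of the 17694 genes tested higher in brain. The WT brain counts were among the values that chose Omp, so this difference is a description with no test. It was 1.28 with the replicate block that pairs brain and liver of a mouse, 0.69 without mouse E, 1.87 without mouse B, 2.08 with library totals alone and 2.04 with totals without mitochondrial rRNA. S100a5 did not pass the filter in this comparison.

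Omp was then set beside its host gene. Capn5 had 253, 546 and 504 counts in the WT brains of mice B, D and E and 147, 311 and 273 in the KO brains of mice A, C and F. Its log2 difference between genotypes in brain was -0.40 (SE 0.26, adjusted p = 0.568, edgeR), which did not pass the test, while the Omp difference has the opposite sign. For every 100 Capn5 counts there were 3.96 ± 1.42 Omp counts in WT brain, 65.8 ± 11.7 in KO brain, 4.54 ± 2.29 in WT liver and 8.18 ± 0.932 in KO liver (SD, n = 3 each). The WT brain values, from 2.38 to 5.14, lay close to those of WT liver, from 2.6 to 7.07, although Capn5 itself was 1.59 higher on the log2 scale in WT brain than in WT liver (SE 0.23, adjusted p = 0.000102, edgeR). With the replicate block the Capn5 difference was 1.55 (adjusted p = 0.000163, edgeR). This likeness was noticed after the values were seen, and the part of unspliced Capn5 RNA in the Omp counts was not tested.

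**Figure D2:**
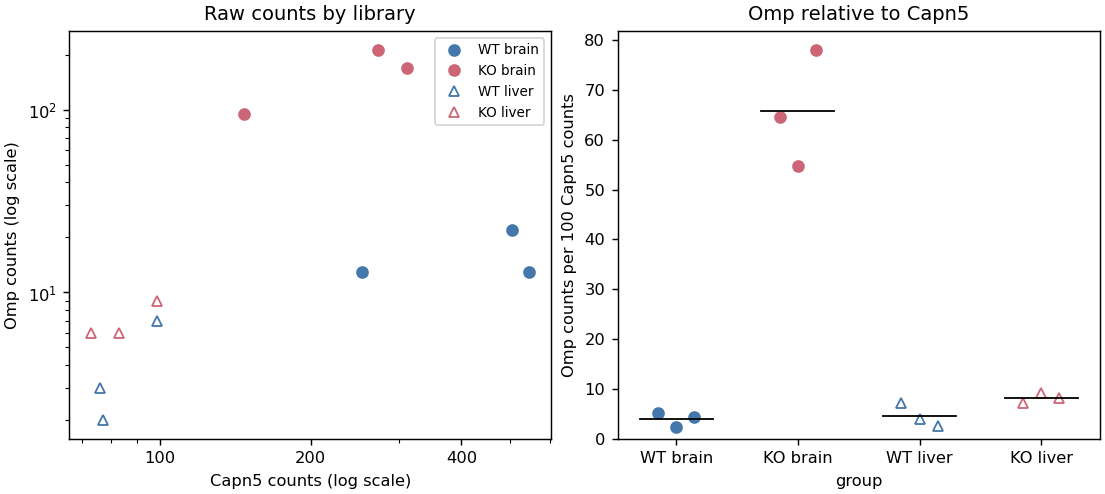
Left, Omp counts against Capn5 counts in each library, both on log axes. Right, Omp counts per 100 Capn5 counts by group, with a line at the group mean. The KO brain libraries stand at 54.7 to 78 Omp counts per 100 Capn5 counts, and the other 3 groups at 2.38 to 9.09.

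With the filter on low counts, edgeR called no other listed gene of olfactory sensory neurons. Of 41 listed genes (odorant transduction, other mature neuron proteins, axon adhesion and guidance, transcription factors, immature cells), 33 were tested and none was called. Of all 17188 genes tested in brain 0.0640% were called, so a count of 0 is close to the background. Stoml3 and Gng8 passed the filter on low counts through their KO libraries, so their values are a description, as is the DESeq2 call of Stoml3 as higher. Of the other 31 genes DESeq2 called 3, Epha5 higher and Gng13 and Ebf1 lower, where it called 1.58% of all genes. At an unadjusted edgeR p under 0.05, 5 of the 31 were higher in KO, where 5.96% of all genes were, and 5 were lower, where 5.01% were. In 7 of the 31 every KO library lay above every WT library and in 5 every KO library lay below, against 8.41% and 7.94% of all genes. By both measures the shares were above the background in both directions, for lists chosen with earlier results known. Their median log2 difference was 0.00106, and over all genes tested it was -0.00162.

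The transduction machinery of the cilia was split between genes that other brain neurons also use and genes at a handful of counts. Of the first kind, the odorant G protein subunit gene Gnal differed by 0.32 (SE 0.18), the adenylyl cyclase gene Adcy3 by 0.00 (SE 0.21) and the calcium-activated chloride channel gene Ano2 by 0.78 (SE 0.27) on the log2 scale. The G protein subunit gene Gng13 had a value of -0.78 (SE 0.22). In normalised values every KO library lay above every WT library for Gnal and Ano2, and below for Gng13. Of all genes tested in brain, 8.41% lay above and 7.94% below in this way. The adjusted p-values of Gnal, Adcy3, Ano2 and Gng13 from edgeR ran from 0.346 to 0.999. Of the second kind, the channel subunit gene Cnga2 had 2, 0 and 3 counts in WT and 5, 0 and 4 in KO. Cnga4, a subunit of the same channel, had 4, 7 and 20 counts in WT and 3, 9 and 13 in KO. Cngb1, the remaining subunit, had 6, 8 and 3 counts in WT and 8, 7 and 12 in KO. Thus the channel that defines odorant transduction in cilia was at most at 20 counts in a library, and the groups overlapped for Cnga2 and Cnga4. For Cngb1 the raw counts overlapped and the normalised values did not, at 0.151 to 0.401 CPM in WT and 0.504 to 0.791 CPM in KO.

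Among the other proteins of mature sensory neurons, Stoml3 came closest to the pattern of Omp. This stomatin-family gene had 7, 21 and 10 counts in WT and 33, 46 and 21 in KO, a log2 difference of 1.84 (SE 0.48) that is given as a description. The counts touched at 21, and the normalised values did not overlap. Rtp1, which helps odorant receptors reach the cell surface, had 7, 5 and 7 counts in WT and 3, 4 and 0 in KO. Its relative Rtp2 had 1, 2 and 0 counts in WT and 0 in every KO library. Gfy, a Golgi protein gene of these neurons, had 0, 0 and 7 counts against 3, 1 and 1. Umodl1 had 1, 1 and 7 counts against 0, 6 and 4. None of these 4 genes had KO brain libraries above all WT libraries. The cell adhesion gene Ncam2 is used widely in brain and had a log2 difference of 0.69 (SE 0.26, adjusted p = 0.406, edgeR).

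Genes for adhesion and sorting of olfactory axons, most of which are also used by other brain neurons, had a median log2 difference of 0.256 over 9 genes. The ephrin receptor gene Epha5 differed by 0.85 (SE 0.20, adjusted p = 0.320, edgeR) and the guidance receptor gene Robo2 by 0.56 (SE 0.21, adjusted p = 0.395, edgeR). The protocadherin gene Pcdh10 differed by 0.43 (SE 0.18, adjusted p = 0.423, edgeR). Kirrel3, an adhesion molecule that sorts axons into glomeruli, had a value of -0.40 (SE 0.17), and its relative Kirrel2 had -0.19 (SE 0.34). Every KO library lay above every WT library for 4 of the 9 genes and below for 1. Of all genes tested in brain, 8.41% and 7.94% did so. The 7 transcription factor genes had a median of -0.353, with Ebf1 at -1.07 (SE 0.24, adjusted p = 0.320, edgeR). Of the genes of immature neurons and progenitors, the growth cone gene Gap43 differed by 0.11 (SE 0.16), Neurod1 had a value of -1.46 (SE 0.49, adjusted p = 0.394, edgeR), and Neurog1 had at most 2 counts.

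**Figure D3:**
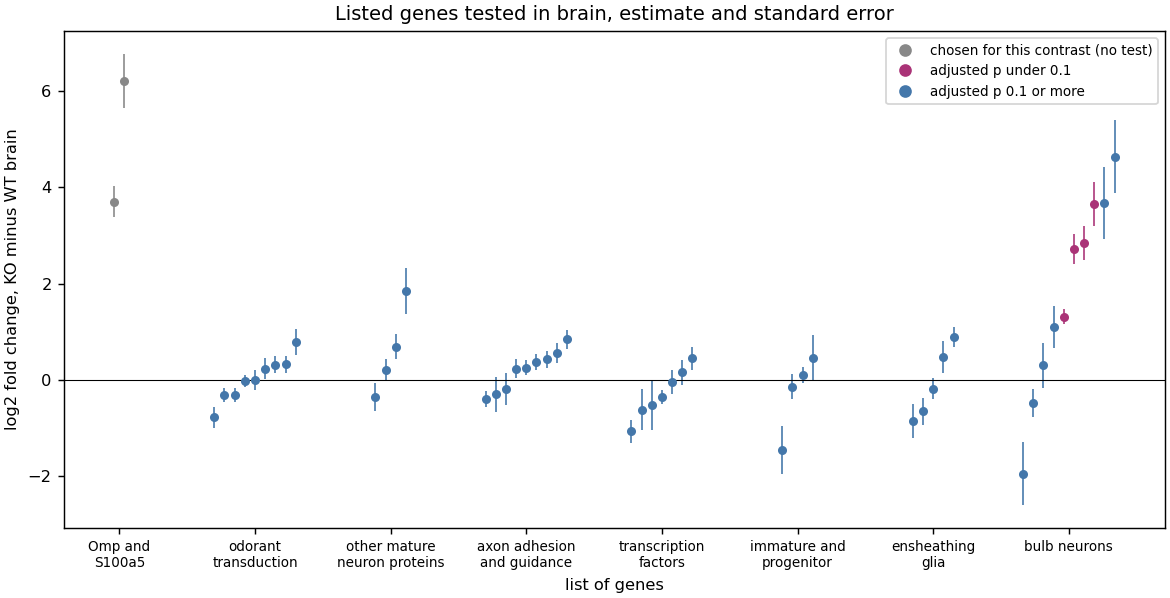
Log2 fold changes between KO and WT brain, with standard errors, for Omp and S100a5 and for the listed genes that were tested, by list. Omp and S100a5 were chosen for this difference. Of the other lists, the genes of the cells that receive olfactory axons reach furthest above 0, through Tbx21, Scgn, Doc2g, Sp8 and Cdhr1. Cdhr1, at 2.72 (SE 0.32), reached the minimum count in every brain library. Doc2g, Sp8, Tbx21 and Scgn passed the filter on low counts through their KO libraries.

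Odorant receptor genes, of which each sensory neuron uses a single one, gave little signal in either genotype. The 1407 Olfr genes together had 246, 229 and 213 counts in the WT brains of mice B, D and E and 202, 234 and 254 in the KO brains of mice A, C and F. The raw sums overlapped. The summed CPM were 15.85, 11.49 and 10.7 in WT and 16.42, 16.83 and 16.74 in KO, so after normalisation every KO library lay above every WT library, by 16.42 against 15.85 at the nearest. Liver libraries had 193 to 284 Olfr counts, and on a scale common to all 12 libraries the liver sums were 13.79 to 20.16 CPM, the KO brain sums 12.88 to 13.28 CPM and the WT brain sums 8.43 to 12.44 CPM. The number of Olfr genes with a count did differ in range, at 37 to 50 in WT brain, 56 to 61 in KO brain and 15 to 25 in liver. There were 81 Olfr genes with counts in KO brain and none in WT brain, with 135 counts in all and at most 6 for a gene, while 48 had counts in WT brain only, with 86 in all and at most 7 for a gene. These were 46.6% and 27.6% of the 174 Olfr genes with a count in brain, against 7.70% and 8.74% of the 31780 genes of any kind. Among genes with at most 7 counts over the 6 brain libraries, a limit set after seeing the data, the shares were 52.6% and 31.2% of 154 Olfr genes and 29.6% and 33.2% of all 8117 genes. The genes of most counts were Olfr1564, with 43, 33 and 58 counts in WT and 38, 70 and 68 in KO, and Olfr287, with 54, 84 and 55 in WT and 38, 39 and 34 in KO. Neither was called (adjusted p = 0.419 and 0.624, edgeR) though Olfr1564 had an unadjusted p of 0.0339, and they were the only Olfr genes that passed the filter. The third, Olfr316, had at most 17 counts. The 16 trace amine receptor genes had at most 1 count in a library. The vomeronasal receptor genes had 12 to 32 counts in WT and 21 to 47 in KO for the 327 Vmn1r genes, and 139 to 218 against 181 to 228 for the 238 Vmn2r genes. The summed CPM of the Vmn2r genes did not overlap, at 6.97 to 12.69 in WT brain and 14.71 to 16.4 in KO brain, and liver libraries had 13 to 22 Vmn2r counts.

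Markers of the other cells of the nose were low in brain. Of 7 genes of supporting cells and glands, Cyp2g1, Ugt2a1, Obp1a and Obp2a had 0 counts in all 6 brain libraries, Muc5b had at most 1 and Cbr2 at most 7. Sec14l3 had 17, 26 and 27 counts in WT and 10, 8 and 19 in KO, and the list summed to 1.10 to 1.61 CPM in WT and 0.647 to 1.46 CPM in KO. The basal cell keratins Krt5 and Krt14 had at most 4 counts, while the basal cell transcription factor gene Trp63 had 22, 40 and 19 counts in WT and 21, 26 and 21 in KO and made up most of the basal list, which summed to 0.955 to 2.11 CPM in WT and 1.71 to 1.94 CPM in KO. Trpc2, the channel of vomeronasal neurons, had 0 counts in brain, and Gucy2d and Cnga3 of necklace neurons had at most 4. Thus 4 of the 7 supporting-cell and gland genes were at 0 in every brain library, and the other 3 had counts in both genotypes. The part of attached nasal tissue in the Omp and S100a5 counts was not tested. The floor of 3 counts stood at 0.244 CPM at most in a brain library.

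Ensheathing glia wrap the olfactory axons up to the glomeruli. Of 7 genes listed for them, 5 were tested and none was called by edgeR, while 1 was higher and 2 were lower at an unadjusted p under 0.05. Of all genes, 0.0640% were called, and 5.96% were higher and 5.01% lower at that unadjusted p. Fabp7, also an astrocyte gene, differed by 0.90 (SE 0.21, adjusted p = 0.320, edgeR) and was called by DESeq2, as were 1.58% of all genes, Sostdc1 had a value of -0.85 (SE 0.36) and Ngfr -0.66 (SE 0.29). Foxd3 had 0 counts in each WT library and 2, 6 and 1 in KO, and Prss56 had 2, 1 and 5 against 7, 5 and 3. The list summed to 40.1 to 51.2 CPM in WT and 58.5 to 61.4 CPM in KO, most of it Fabp7 and Npy.

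**Figure D4:**
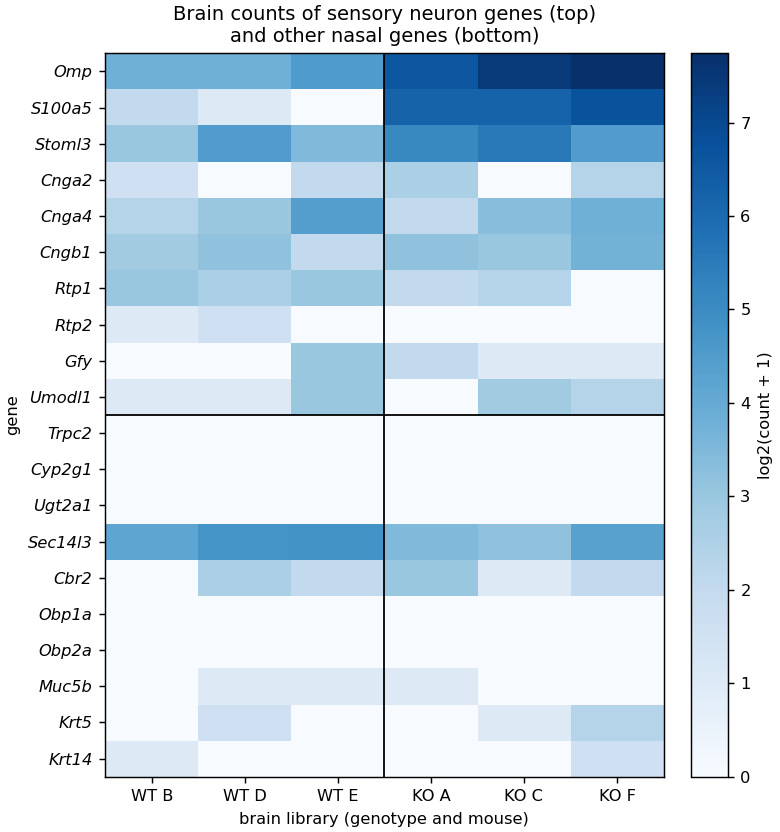
Counts of sensory neuron genes (above the line) and of other nasal genes (below it) in the 6 brain libraries, as log2(count + 1). Omp and S100a5 darken from WT to KO, while Trpc2, Cyp2g1, Ugt2a1, Obp1a and Obp2a are at 0 throughout.

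Genes of the bulb cells that olfactory axons contact included some of the genes called in brain. Of 10 listed genes, 6 reached the minimum count without relying on KO libraries, and of these edgeR called Cdhr1 and Gng4, both higher in KO, where it called 0.0640% of all genes. Of these 6, DESeq2 called the same genes, Cdhr1 and Gng4, where it called 1.58% of all genes. The other 4, Doc2g, Sp8, Tbx21 and Scgn, passed the filter through their KO libraries, so their differences are a description. So are the DESeq2 calls of Doc2g, Sp8 and Scgn. Cdhr1, a cadherin of mitral and tufted cells, had 21, 46 and 59 counts in WT and 132, 266 and 220 in KO, a log2 difference of 2.72 (SE 0.32, adjusted p = 0.0241, edgeR). The G protein subunit gene Gng4 rose by 1.31 (SE 0.15, adjusted p = 0.0241, edgeR). Doc2g, a mitral and tufted cell gene, had 3, 18 and 6 counts in WT and 78, 94 and 80 in KO, a difference of 3.65 (SE 0.46). Sp8, an interneuron transcription factor gene, had 7, 12 and 17 counts in WT and 51, 81 and 62 in KO, a difference of 2.85 (SE 0.35). Eomes, Th, Lhx1 and Calb2 were called by neither tool. Eomes, a mitral and tufted cell transcription factor gene, had 45, 159 and 61 counts in WT and 49, 124 and 66 in KO, a difference of 0.30 (SE 0.46), and Th, of dopaminergic interneurons, had 20, 93 and 48 against 68, 117 and 64, a difference of 1.10 (SE 0.44). The groups overlapped for both. Calb2 had a value of -0.48 (SE 0.30, adjusted p = 0.554, edgeR). Lhx1 had a value of -1.95 (SE 0.65), a description, since it passed the filter through its WT libraries. Summed over the list, which Calb2 dominates, the level was 138 to 268 CPM in WT and 155 to 248 CPM in KO. These genes were compared in the same libraries and the same contrast that chose Omp and S100a5, and the part of the amount of bulb in each sample was not tested. In bulk RNA, fewer cells or axons of a type and less RNA in each cannot be told apart.

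Of the 8 genes with brain profiles nearest to Omp, 4 were on the list of bulb cell genes (Sp8, Cdhr1, Tbx21 and Doc2g) and 4 were on no list. That list held 10 of the 17188 genes tested in brain. Omp and S100a5 were chosen for their difference in these same libraries, so genes with a like difference rank near them. The ranking is thus a description. Sp8, Tbx21, Doc2g and Scgn also passed the filter on low counts through their KO libraries. Likeness was the Euclidean distance between centred log2 CPM profiles over the 6 brain libraries, which are shared by all of these genes. The nearest to Omp were Frmd7 (distance 1.11), Sp8 (1.30), Cdhr1 (1.32), Cpa6 (1.46), Tbx21 (1.46), Doc2g (1.79), Shisa3 (1.92) and Trdn (2.07). For S100a5 the nearest was Omp (2.29), followed by Frmd7 (2.52), Doc2g (2.59), Tbx21 (2.80), Scgn (2.84), Cpa6 (2.95), Sp8 (3.28) and Cdhr1 (3.39). The relation was not mutual, since S100a5 came 16th among the 17187 genes ranked by distance from Omp. The S100a5 profile ran from -3.12 in the WT brain of mouse E to 2.67 in the KO brain of mouse F, and that of Omp from -2.08 in the WT brain of mouse D to 2.11 in the KO brain of mouse F.

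**Figure D5:**
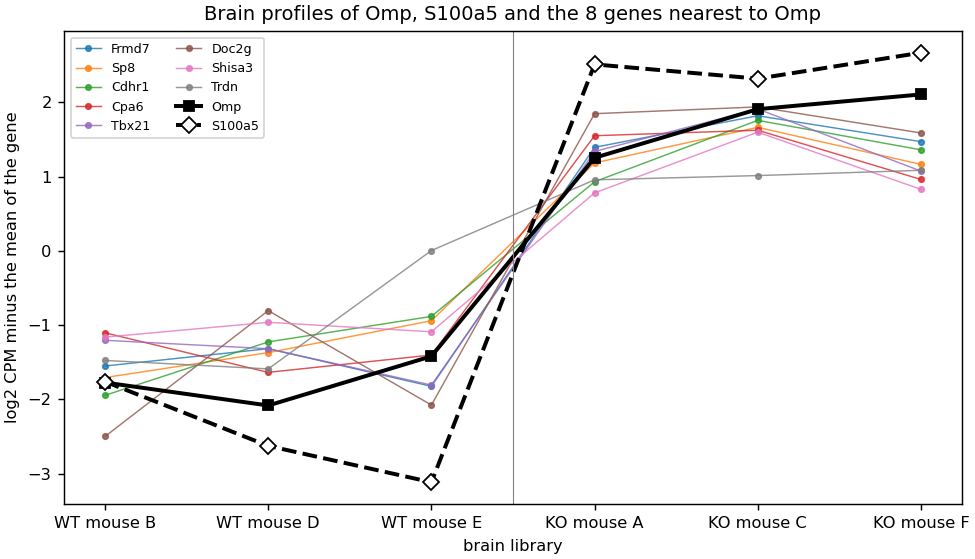
Log2 CPM (prior count 2) minus the mean of the gene in the 6 brain libraries for Omp, S100a5 and the 8 genes nearest to Omp. Lines join the values of a gene and libraries within a genotype have no order. All of the profiles lie above 0 in KO and below 0 in WT, with the exception of Trdn in mouse E, and S100a5 spans the widest range of the 10 genes.

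The other S100 genes were read for comparison. Of 15 listed, 7 were tested and none was called by edgeR or DESeq2, against 0.0640% and 1.58% of all genes, so a count of 0 is close to the background. S100b was lower at an unadjusted p of 0.0104, where 5.01% of all genes were lower at an unadjusted p under 0.05, and their median log2 difference was 0.0623. S100b, the glial member, had KO below WT in every library with a value of -0.54 (SE 0.17, adjusted p = 0.365, edgeR). The neighbour S100a6 had 80, 95 and 88 counts in WT and 51, 93 and 76 in KO, a difference of 0.15 (SE 0.25, adjusted p = 0.824, edgeR). S100a4, the neighbour on the other side, had at most 1 count in a brain library. Mean levels per kilobase of exon in KO brain were 68.3 CPM for S100b, 50.1 CPM for S100a1, 23.5 CPM for S100a13, 19.2 CPM for S100a10, 14.5 CPM for S100a16, 13.9 CPM for S100a5 and 3.86 CPM for S100a6. In WT brain they were 99.2 CPM for S100b, 48.0 CPM for S100a1, 26.4 CPM for S100a13, 17.8 CPM for S100a10, 13.6 CPM for S100a16 and 3.50 CPM for S100a6, against 0.188 CPM for S100a5.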

How the data were processed

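Total RNA from whole organs was made into stranded libraries and sequenced as single-end reads. Per the labels and the study's methods, the authors trimmed reads with Trimmomatic, aligned them to mm10 with STAR 2.7.3a and assigned them to the exons of genes with featureCounts, set to the reverse strand. Raw counts per gene, not normalised, make up the deposited table. Of 55487 genes, 55141 were matched to a symbol of GENCODE vM21, and 21046 had no count.

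Counts were fitted with edgeR 4.0.16 in R 4.3.3 for each tissue on its 6 libraries (TMM, filterByExpr, robust quasi-likelihood F test, Benjamini-Hochberg adjustment over all genes tested, call at adjusted p under 0.1). CPM divide counts by the library size scaled by TMM within a tissue, or over all 12 libraries where a common scale is named (added after seeing the data). DESeq2 1.42.0 was an alternative. Intervals are at 95% and, like the floor of 3 counts, cover counting error only. Profiles used log2 CPM with a prior count of 2. The fit was tested on simulated data.

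The genes described and the lists were chosen with earlier results of these data known. Named genes are Omp and S100a5, their neighbours, the called or else lowest-p genes of each list (up to 4), listed genes at the floor, the 8 nearest genes to each, receptor families and Mettl5. Other examples from the lists were added after their values were seen.

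Brain and liver of a mouse share its letter, so the labels pair them. Correlations of their deviations from the group means over 12574 genes had their minimum at -0.0389 (mouse B) and their maximum at 0.140 (mouse F). Genotypes are not paired by the labels.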

Additional observations from a re-analysis of the deposited data

How the results depend on the processing

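The brain difference of Omp kept its direction under every alternative, from 3.50 with library totals alone to 3.94 without mouse E (3.52 to 3.94 when leaving out each mouse in turn). The S100a5 ratio to 3 counts per WT library was 31.2 with library totals alone and 34.2 to 39.9 when leaving out each mouse in turn. Totals without mitochondrial rRNA gave 3.70 for Omp, 36.3 for S100a5 and 11 genes called in brain. The 11 genes called in brain became 4 with library totals alone, 269 with DESeq2, 1000 with no filter on low counts, and from 2 (without mouse E) to 23 (without mouse C) when leaving out each mouse, with 6 without A, 3 without B, 4 without D and 5 without F. Of the sensory neuron lists, DESeq2 called 4 genes and the fit with no filter 6 (the same 4 with Ncam2 and Robo2), and of the nasal and glial lists both called 1 (Fabp7), against 0 in the other fits. Stoml3, called in both, is a description as above. The cause of these shifts was not tested.

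The Omp difference between WT brain and WT liver is a description. It was 1.28 with the replicate block that pairs tissues by mouse, 1.37 with DESeq2, 1.29 with no filter, 1.31 without mouse D and 0.69 without mouse E, and leaving out each mouse in turn gave 0.69 to 1.87. Scaling by library totals gave 2.08, scaling by totals without mitochondrial rRNA 2.04, and the fit of all 12 libraries 1.24. The block was run for this comparison, where it kept the Capn5 call (an alternative chosen after seeing the data), and the labels do not pair the genotypes. Depth limits S100a5 in WT brain and liver and Omp in liver, where a library held at most 9 counts.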
